A study of Bos taurus with 6 samples.

Results

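Endocytosis, lysosome and autophagy genes were examined in longissimus muscle of Qinchuan cattle. Members were all transcripts of the authors' deposited table that carry the KEGG label Endocytosis, Lysosome or Regulation of autophagy. Transcripts that also carry the label of oxidative phosphorylation, MAPK signaling, ubiquitin mediated proteolysis or endoplasmic reticulum protein processing were left out, as were symbols that start with HSP or PSM. In total, 109 transcripts of 107 genes were obtained, out of 5288 transcripts of 5152 genes in the table. The embryonic group held 3 samples taken at 90 days after fertilization, and the adult group held 3 samples taken at 24 months. All 6 samples were bulk muscle of Qinchuan cattle from a slaughterhouse, no treatment is named, and sex and litter are not given in the sources used here. Abundance is given in FPKM, a count of sequenced fragments divided by exon length and by the mapped depth of the library, with 1 value per transcript and stage. The table holds no value of a single animal, so no spread and no test between the stages can be given, and it holds no read counts, so the counting error of a value cannot be given either. Of 14 symbols for mature skeletal muscle, 9 have a row, and their 10 transcripts all had the higher FPKM in the adult, as had 90.3% of all transcripts. The stage of each column was taken from values that the study prints, some of them for these same genes. These transcripts are therefore no independent check of the labels. The table lists only transcripts that the authors called different at 2-fold or more, so each member differs between the stages by construction, and which members are higher or lower is given as a description.

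In endocytosis, adaptors gather cargo at the plasma membrane, a clathrin or caveolin coat shapes the membrane and dynamin cuts the vesicle off. Rab GTPases route the vesicle to early endosomes, from where cargo is recycled or is packed by ESCRT complexes into internal vesicles bound for the lysosome. Lysosomes digest proteins, glycans and lipids at acidic pH, and autophagy brings portions of the cell's own cytoplasm and worn organelles to them, which in skeletal muscle contributes to the turnover of proteins and mitochondria.

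Most of these transcripts were more abundant in adult muscle, by a smaller factor than the table as a whole. Of the 109 members, 102 were at least 2-fold higher in adult muscle and 7 were at least 2-fold lower, against 90.3% higher and 9.68% lower among all 5288 transcripts, so the share of higher members lies near that of the table. The median log2 ratio of adult over embryonic FPKM was 2.30 for the members and 2.71 for all transcripts. An 8-fold higher adult value was reached by 31 members, or 28.44%, against 41.5% of all transcripts. Only 12 members lay above the upper quartile of the table's log2 ratios (3.72) and 37 lay below its lower quartile (1.81). The median FPKM of the members was 2.19 in embryonic and 13.9 in adult muscle, compared with 1.77 and 11.0 over the table. Abundance spanned a wide range, from an embryonic FPKM of 0.242 for MFSD8 to 63.4 for CD63, and from an adult FPKM of 0.184 for ASAP1 to 436 for CD63. The 5 largest log2 ratios were those of BECN1 (5.25), PRKAA1 (5.23), VTA1 (4.88), ATG4A (4.68) and PRKCZ (4.63). Among the 7 lower members were ERBB3 (-4.93), ABCA2 (-2.10), ASAP1 (-2.00), SH3GL1 (-1.81), SGSH (-1.23) and EHD3 (-1.13). For 30 members the embryonic FPKM was below 1, among them BECN1, PRKAA1, VTA1 and PRKCZ, so that these large ratios rest on low values.

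**Figure D1:**
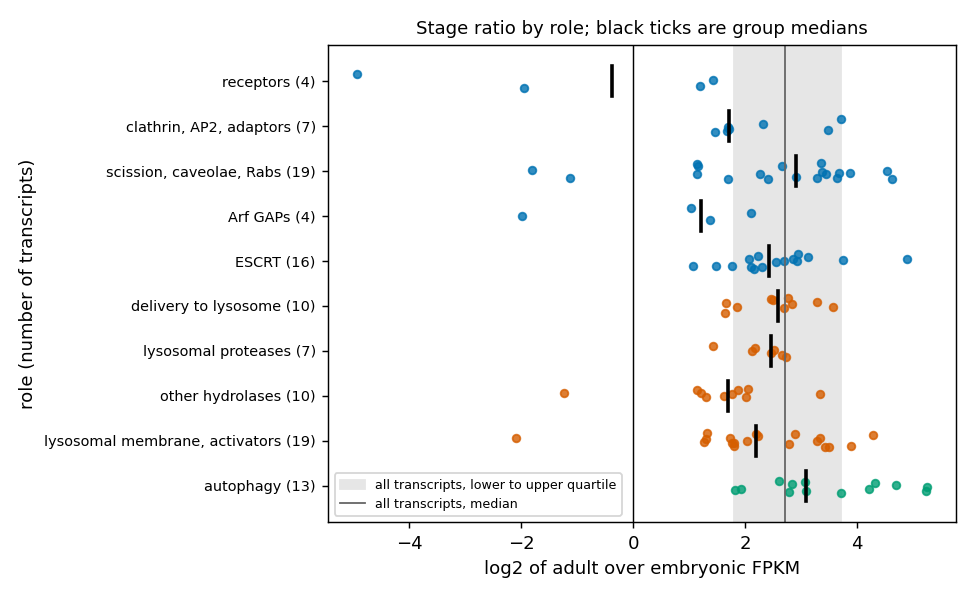
Each point is the log2 ratio of adult over embryonic FPKM (x axis) of 1 member transcript. Rows are roles with the number of transcripts (y axis), and the receptor row leaves out EGFR and PDGFRA, which carry excluded labels. Black ticks are row medians, and the grey line and band are the median (2.71) and the lower to upper quartile (1.81 to 3.72) of all 5288 transcripts; autophagy has its median at 3.09, above the line, and clathrin adaptors (1.72), other hydrolases (1.70), Arf GAPs and receptors (-0.38) lie below the band.

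The direction of many members depends on how the stages are scaled to each other. The study gives a markedly lower exonic share of mapped reads for the embryonic samples, and its part in the ratios was not tested. Every log2 ratio drops by 3.73 when centred on the 21 listed transcripts of a housekeeping list, by 2.31 when centred on 70 cytosolic ribosomal protein transcripts, and by 3.25 when both stages are scaled to the same FPKM total. Because the table lists called transcripts only, most of them with a higher adult FPKM, all 3 shifts carry that selection. The housekeeping list also holds CHMP2A, a member, and VPS29, which is on the endosomal sorting list given below. Under the 3 shifts, 12, 54 and 28 members stay higher in adult muscle, and the 7 lower members stay lower. Among all transcripts, 1311, 3190 and 1854 stay higher. The direction is therefore given below as deposited, together with the number of members that change it under the housekeeping, ribosomal and equal-total scaling, in this order. Differences between members within a stage, and the order of their ratios, do not depend on these scalings.

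**Figure D2:**
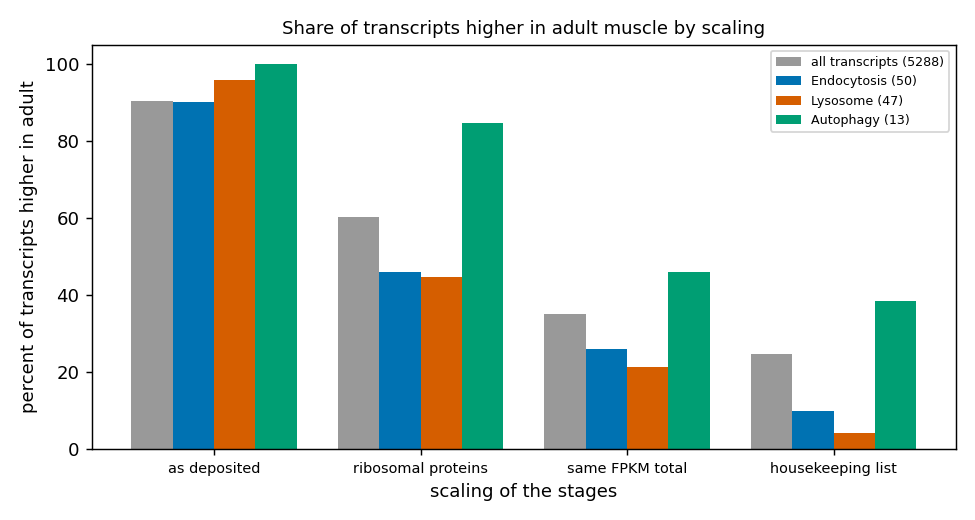
Bars give the percent of transcripts higher in adult muscle (y axis) with FPKM as deposited and under the 3 scalings (x axis), for all 5288 transcripts and for the 50 Endocytosis, 47 Lysosome and 13 autophagy members. Housekeeping centring leaves 5 Endocytosis, 2 Lysosome and 5 autophagy members higher.

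Of the 3 pathway labels, autophagy had the highest median ratio, and Endocytosis and Lysosome had medians close to each other. Of all transcripts 90.3% were more abundant in the adult, with a median log2 ratio of 2.71, and 41.5% at least 8-fold. Of the 50 Endocytosis members, 45 were more abundant in the adult (median log2 ratio 2.25), and 14 were at least 8-fold higher. Of the 47 Lysosome members, 45 were higher, with a median of 2.18, and 10 were at least 8-fold higher. All 13 autophagy members were higher, with a median of 3.09, and 8 of them were at least 8-fold higher, or 61.54% against the 41.5% of the table. CLTB carries both the Endocytosis and the Lysosome label. Ribosomal centring puts the medians of Endocytosis and Lysosome at -0.06 and -0.13 and leaves that of autophagy at 0.78. No test of the difference between the labels was possible.

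Of the 4 receptor transcripts among the members 2 were higher and 2 were lower in the adult as deposited. This split depends on the member rule. The full list of this role, which also holds ubiquitin ligases, has 13 rows, of which 11 were higher and 2 lower. Under the 3 scalings 2, 6 and 3 of the 13 stay higher. The receptors EGFR (FPKM 1.99 in embryonic and 7.96 in adult muscle) and PDGFRA (6.48 and 15.7) were left out by their other labels. ERBB3, a receptor that binds neuregulins, had an FPKM of 12.3 in embryonic and 0.401 in adult muscle, a 30.6-fold lower adult value and the lowest ratio of all members. KDR, the main VEGF receptor of endothelial cells, had 5.41 in embryonic and 14.5 in adult muscle. KIT, the stem cell factor receptor, had 1.09 in embryonic and 2.49 in adult muscle. ERBB3 was thus above KDR and KIT in the embryo and below both in the adult. Under each of the 3 scalings KDR and KIT turn lower as well. KDR is also a marker of endothelium. Of 11 endothelial marker symbols 6 have a row, and KDR is 1 of these 6. All 6 were higher in adult muscle as deposited, as were 90.3% of all transcripts. Their summed FPKM, in which KDR is counted, was 16.6 in embryonic and 56.5 in adult muscle. Of the 6, the numbers that stay higher under the 3 scalings are 0, 2 and 0. The part of endothelial cells in the value of KDR was not tested. In bulk tissue, fewer cells of a type and less RNA per cell cannot be told apart.

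Clathrin and its adaptors at the plasma membrane were all higher in adult muscle, as were 90.3% of all transcripts. The AP2 complex, which links clathrin to cargo, was represented by each of its 4 kinds of subunit. AP2S1, the small sigma subunit, had an FPKM of 12.1 in embryonic and 135 in adult muscle, 11.1-fold higher. AP2B1, the beta subunit, had 7.77 and 38.6. AP2M1, the mu subunit that binds tyrosine-based sorting signals, had 20.4 and 65.6. AP2A2, an alpha subunit, had 8.47 and 23.3, only 2.75-fold higher. The 4 subunits of a single complex therefore differed in their ratio, and AP2S1 made up 24.8% of the summed FPKM of these 4 in embryonic and 51.4% in adult muscle. CLTB, a clathrin light chain, had the highest adult level of the role, with 14.9 in embryonic and 194 in adult muscle. PIP5K1A, which makes the phosphoinositide that recruits AP2, had 2.87 and 9.26, and the epsin EPN2, which helps bend the membrane, had 1.44 and 4.72. Of these 7 transcripts 7, 4 and 5 change direction under the scalings. The clathrin heavy chain CLTC has no row under that name.

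Caveolins, which coat the flask-shaped caveolae, changed their proportions. CAV1 had an FPKM of 17.2 in embryonic and 179 in adult muscle, 10.4-fold higher. CAV2, its partner in most cell types, had 1.90 and 20.7, 10.9-fold higher. CAV3, the muscle caveolin, had 40.2 and 88.6, a log2 ratio of only 1.14. CAV1 and CAV2 thus kept a ratio of FPKM that was nearly the same at both stages, CAV2 being 9.92% of the pair in embryonic and 10.4% in adult muscle, whereas CAV3 was 67.8% of the 3 caveolins in embryonic and 30.7% in adult muscle. CAV1 (chr4:52173109-52208687, build bosTau7) and CAV2 (chr4:52228432-52236127) are neighbours, 19744 bp apart. CAV1 and CAV2 are abundant in endothelial cells and adipocytes as well. Of 7 adipocyte symbols 3 have a row, with a summed FPKM of 0.956 in embryonic and 11.9 in adult muscle, and 2 of the 3 stay higher under each scaling. The part of endothelial cells and adipocytes in the caveolin values was not tested. All 3 caveolins turn lower when centred on the housekeeping list, and CAV3 also under the other scalings.

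The Rab GTPases and endosomal factors named in this paragraph were all higher in adult muscle as deposited, as were 90.3% of all transcripts. EHD3 of recycling endosomes, given below, was lower. RAB5B had an FPKM of 1.56 in embryonic and 36.0 in adult muscle, 23.1-fold higher, and stays higher under the 3 scalings. RAB5A, a second form of this GTPase, had 0.841 and 10.5. RABEP1, rabaptin, an effector of RAB5, had 3.09 and 39.2. The fusion factor VPS45, which acts on endosomal SNARE proteins, had 1.53 and 11.5, and ZFYVE9, an endosomal anchor for SMAD proteins, had 1.37 and 13.4. RAB11B, which directs recycling endosomes, had 8.80 in embryonic and 19.6 in adult muscle, 2.22-fold higher. The RAB11 effectors RAB11FIP2 and RAB11FIP3 were 6.28-fold and 5.30-fold higher, both from an embryonic FPKM below 1. RAB11A, which is not a member, had 1.30 and 11.6, so the RAB11 forms differed in ratio, with log2 values of 3.16 for RAB11A and 1.15 for RAB11B.

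Scission factors and endophilins did not move as a block. DNM2, the widely expressed dynamin, had an FPKM of 3.90 in embryonic and 18.8 in adult muscle. DNM1L, a dynamin relative that divides mitochondria and peroxisomes, had 0.587 and 5.99. The endophilin SH3GL1, which binds dynamin at endocytic necks, had 6.69 in embryonic and 1.91 in adult muscle, 3.50-fold lower. SH3GLB1, an endophilin B that binds the beclin 1 complex through UVRAG, went the other way, with 1.28 in embryonic and 18.8 in adult muscle, and SH3GLB2 had 4.33 and 9.55. SH3GL1 was 54.4% of the summed FPKM of these 3 endophilins in embryonic and 6.32% in adult muscle, and SH3GLB1 was 10.4% and 62.1%. EHD3, an ATPase of recycling endosomes that the table lists as MGC139254, had 1.40 in embryonic and 0.638 in adult muscle. PRKCZ, an atypical protein kinase C of cell polarity, had the largest ratio of the 19 transcripts counted here, with 0.3996 in embryonic and 9.86 in adult muscle. VTA1, also on the list of this role but counted with ESCRT, had a larger ratio. RHOA, a GTPase that organises actin, had 8.21 and 26.5. Of the 19 transcripts for scission, caveolae and recycling, 17 were higher in adult muscle (median log2 ratio 2.91), against 90.3% of all transcripts (median 2.71). Under the scalings 14, 5 and 8 of these 17 transcripts change direction.

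Arf GTPase-activating proteins, which switch off the Arf GTPases that recruit coats, had small ratios. ARFGAP2 had an FPKM of 10.5 in embryonic and 45.0 in adult muscle. ARFGAP3 had 1.56 and 4.02, and the symbol of this row is not certain because its description names ARFGAP1. SMAP2, which acts on clathrin-coated carriers, had 0.520 and 1.07. ASAP1, which also binds focal adhesion proteins, was the only one that was lower, with 0.733 in embryonic and 0.184 in adult muscle. Both values of ASAP1 are below 1 FPKM. The 3 higher members turn lower under each of the scalings.

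**Figure D3:**
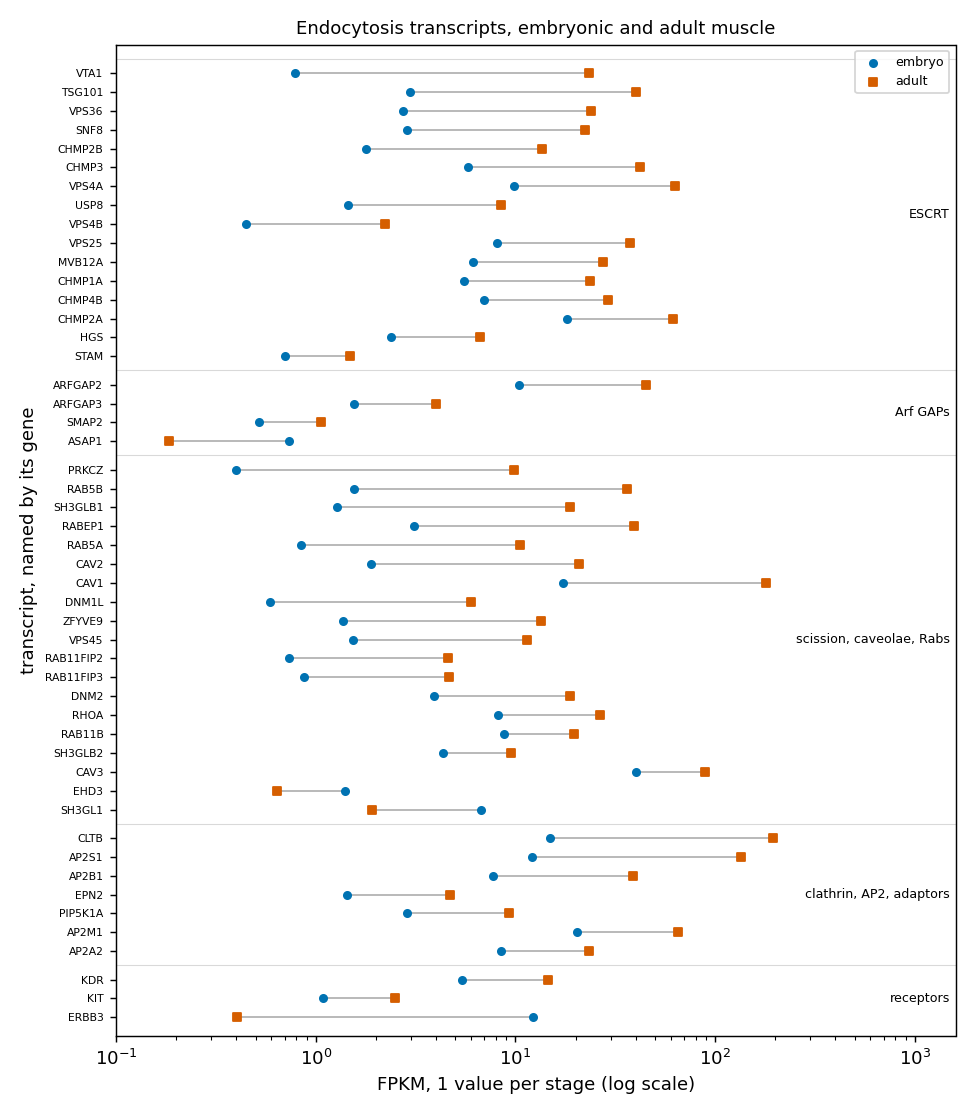
Each line joins the embryonic (circle) and the adult (square) FPKM of 1 transcript (x axis, log scale), with transcripts named by gene and grouped by role (y axis); 1 value per stage, no replicates. Members that are not named in the text are left out, and the squares lie to the right except for ERBB3, SH3GL1, EHD3 and ASAP1.

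All 16 ESCRT transcripts were more abundant in the adult (median log2 ratio 2.42), as were 90.3% of all transcripts (median 2.71). ESCRT complexes act in turn, from recognition of ubiquitin-tagged cargo by ESCRT-0 to membrane cutting by ESCRT-III and its disassembly by the ATPase VPS4. The first step had the lowest ratios. HGS had an FPKM of 2.38 in embryonic and 6.66 in adult muscle, and its ESCRT-0 partner STAM had 0.704 and 1.48. In ESCRT-I, TSG101, which binds ubiquitin and viral late domains, had 2.96 and 40.0, 13.5-fold higher. MVB12A, of the same complex, had 6.17 and 27.4. Thus TSG101 was below MVB12A in the embryo and above it in the adult. All 3 subunits of ESCRT-II were found, VPS25 with 8.04 and 37.6, SNF8 with 2.88 and 22.3, and VPS36 with 2.75 and 23.8. Their log2 ratios lay between 2.22 and 3.12, and VPS25 was the most abundant of the 3 at both stages.

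The 5 ESCRT-III subunits among the members had log2 ratios between 1.76 and 2.92. CHMP2A was the most abundant of them at both stages, with an FPKM of 18.2 in embryonic and 61.4 in adult muscle. CHMP3 had 5.80 and 42.0, CHMP4B, which forms the main filament, had 6.93 and 28.9, and CHMP1A had 5.51 and 23.7. CHMP2B, a paralogue of CHMP2A, was the least abundant, with 1.79 and 13.5. None of these 5 reached an 8-fold difference. Of the related proteins on the ESCRT list that are not members, IST1 had 4.73 and 41.1, 8.68-fold higher, and CHMP7 had 7.74 and 23.9. Of the disassembly step, VPS4A had 9.83 and 63.2 and VPS4B 0.450 and 2.22, so VPS4A was the more abundant form at both stages. VTA1, the cofactor that activates VPS4, had 0.789 and 23.2, 29.5-fold higher and the largest ratio of the ESCRT list. USP8, which removes ubiquitin from endosomal cargo, had 1.44 and 8.42. Of the 16 transcripts 14, 8 and 14 change direction under the scalings, TSG101 and VTA1 being the exceptions under housekeeping centring. Of 35 symbols on the ESCRT list, 17 have no row, and a missing row can mean that a gene was not called or that it is listed under another name.

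Genes that deliver enzymes to the lysosome were all higher in the adult (median log2 ratio 2.59), as were 90.3% of all transcripts (median 2.71). New hydrolases receive a mannose 6-phosphate tag in the Golgi, are bound by receptors and leave in carriers formed with adaptors. GNPTAB, the catalytic precursor of the tagging enzyme, had an FPKM of 0.730 in embryonic and 8.65 in adult muscle. GNPTG, its gamma subunit, had 4.40 and 13.9. The 11.8-fold ratio of GNPTAB was well above the 3.16-fold ratio of GNPTG, and GNPTAB was 14.2% of the pair in embryonic and 38.4% in adult muscle. M6PR, the cation-dependent receptor for the tag, had 5.43 and 37.1, the highest adult level of this role. GGA1, an adaptor of the trans-Golgi network, had 2.44 and 8.78. The AP1 gamma subunit gene AP1G1 is listed with 2 transcripts, one with 1.11 and 6.13 and the other with 0.628 and 4.04, and their log2 ratios of 2.46 and 2.69 were close.

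The AP3 adaptor, which carries membrane proteins to lysosomes, was present with each of its 4 kinds of subunit. AP3D1, the delta subunit, had an FPKM of 8.25 in embryonic and 25.7 in adult muscle, and AP3B1, a beta subunit, had 2.38 and 16.9. AP3S2, a sigma subunit, had 4.75 and 26.8. AP3M1, a mu subunit, had 0.798 and 7.74. AP3M1 was the scarcest at both stages and had the largest ratio, 9.70-fold, and AP3D1 had the smallest, 3.12-fold. Of the 10 transcripts for delivery 10, 3 and 8 change direction under the scalings.

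The 7 lysosomal proteases were all higher in adult muscle, as were 90.3% of all transcripts. Their log2 ratios lay between 1.43 and 2.73, and none of these members reached 8-fold. CTSL2, a cathepsin on the protease list that carries none of the 3 labels, lay outside this range, with an FPKM of 4.53 and 57.2 (log2 ratio 3.66). Cathepsin D, listed as CATD and the main aspartic protease of lysosomes, had an FPKM of 28.0 in embryonic and 127 in adult muscle and made up 57.4% and 58.8% of the 7 in the embryo and the adult. LGMN, legumain, which cleaves after asparagine, had 5.12 and 28.0. CTSA, which also protects NEU1 and GLB1 in a complex, had 3.66 and 15.9. CTSH had 2.39 and 15.9, and the cysteine protease CTSF had 8.71 and 23.4, the smallest ratio (2.69-fold). CTSK, known from bone-resorbing osteoclasts, and CTSC, which activates serine proteases of immune cells, were scarce, with 0.431 and 2.72 and with 0.519 and 2.96. Cathepsins are also abundant in macrophages. Of 17 macrophage symbols 4 have a row (C1QA, LAPTM5, ITGAM and LYZ), all higher in adult muscle as deposited, as were 90.3% of all transcripts. Their summed FPKM was 9.35 in embryonic and 25.6 in adult muscle, their median log2 ratio was 1.44, and none stays higher under any of the 3 scalings. LAPTM5 is itself a member, and the defining markers CD68, CD163 and CSF1R have no row. Of 10 leukocyte symbols only CORO1A has a row, with 0.833 and 2.23, and it turns lower under each scaling. The part of such cells in the lysosomal values was not tested. Of the 7 proteases 7, 3 and 7 change direction under the scalings.

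Lysosomal enzymes that act on glycans and lipids were scarce and had small ratios. In adult muscle the 10 transcripts had a median FPKM of 4.50, against 15.9 for the 7 proteases. ASAH1, acid ceramidase, had 0.783 and 7.89, 10.1-fold higher and the only one past 8-fold. Smaller ratios were those of NEU1, a sialidase, at 3.65-fold, GLB1, a beta-galactosidase, at 3.41-fold, and MANBA, a beta-mannosidase, at 3.09-fold. SUMF1, which activates sulfatases in the endoplasmic reticulum, IDS, the iduronate sulfatase, and LIPA, the acid lipase for cholesteryl esters, were 2.47-fold, 2.32-fold and 2.21-fold higher. SGSH, a sulfatase of heparan sulfate breakdown, was the exception, with 2.19 in embryonic and 0.932 in adult muscle. SGSH was thus above IDS, which acts in the same breakdown, in the embryo and below it in the adult. Of the 9 higher transcripts 9, 8 and 8 change direction under the scalings.

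Among lysosomal membrane proteins, LAMP1 and LAMP2 differed in ratio. LAMP1 had an FPKM of 31.0 in embryonic and 74.1 in adult muscle, 2.39-fold higher. LAMP2, which is needed for autophagosome clearance in muscle and is mutated in Danon disease in humans, is listed with 2 transcripts. The more abundant one had 2.18 in embryonic and 42.5 in adult muscle, 19.5-fold higher, and the other had 0.471 and 5.05, 10.7-fold higher. LAMP2 was 7.88% of the summed FPKM of the listed transcripts of both genes in embryonic and 39.1% in adult muscle. LAMP1 turns lower under each scaling, whereas the more abundant LAMP2 transcript stays higher under all 3.

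CD63, a tetraspanin of late endosomes and exosomes, had the highest FPKM of all 109 members at both stages, with 63.4 in embryonic and 436 in adult muscle. PSAP, the precursor of the saposins that activate sphingolipid hydrolases, had 15.4 and 175. LAPTM4A, a small membrane protein of late endosomes and lysosomes, had 17.9 and 133. Its relatives were far scarcer, LAPTM4B with 0.767 and 2.60 and LAPTM5, which is typical of blood cells, with 2.72 and 9.03. SCARB2, an abundant membrane protein of lysosomes, had 5.05 and 51.2, and MCOLN1, the lysosomal calcium channel, had 1.51 and 14.6. Cholesterol export is represented by NPC2, with 6.23 and 21.7.

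The other proteins of the lysosomal membrane differed widely in ratio. CTNS, the cystine exporter, had an FPKM of 0.663 in embryonic and 2.32 in adult muscle. SLC17A5, the sialic acid exporter, had 0.899 and 2.25, and SLC11A2, which moves iron and other divalent metals, had 1.37 and 3.40. CLN3, a lysosomal membrane protein listed by its identifier ENSBTAG00000018000, had 0.761 and 3.56. MFSD8, a chloride channel of lysosomes, had 0.242 and 3.57, 14.8-fold higher from the lowest embryonic level of all members. ENTPD4, a nucleotide-cleaving enzyme, had 1.26 and 5.72. ABCA2, a lipid transporter known from oligodendrocytes, was the exception, with 1.58 in embryonic and 0.367 in adult muscle, 4.29-fold lower. Of the 18 higher transcripts of the role 16, 10 and 12 change direction under the scalings.

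**Figure D4:**
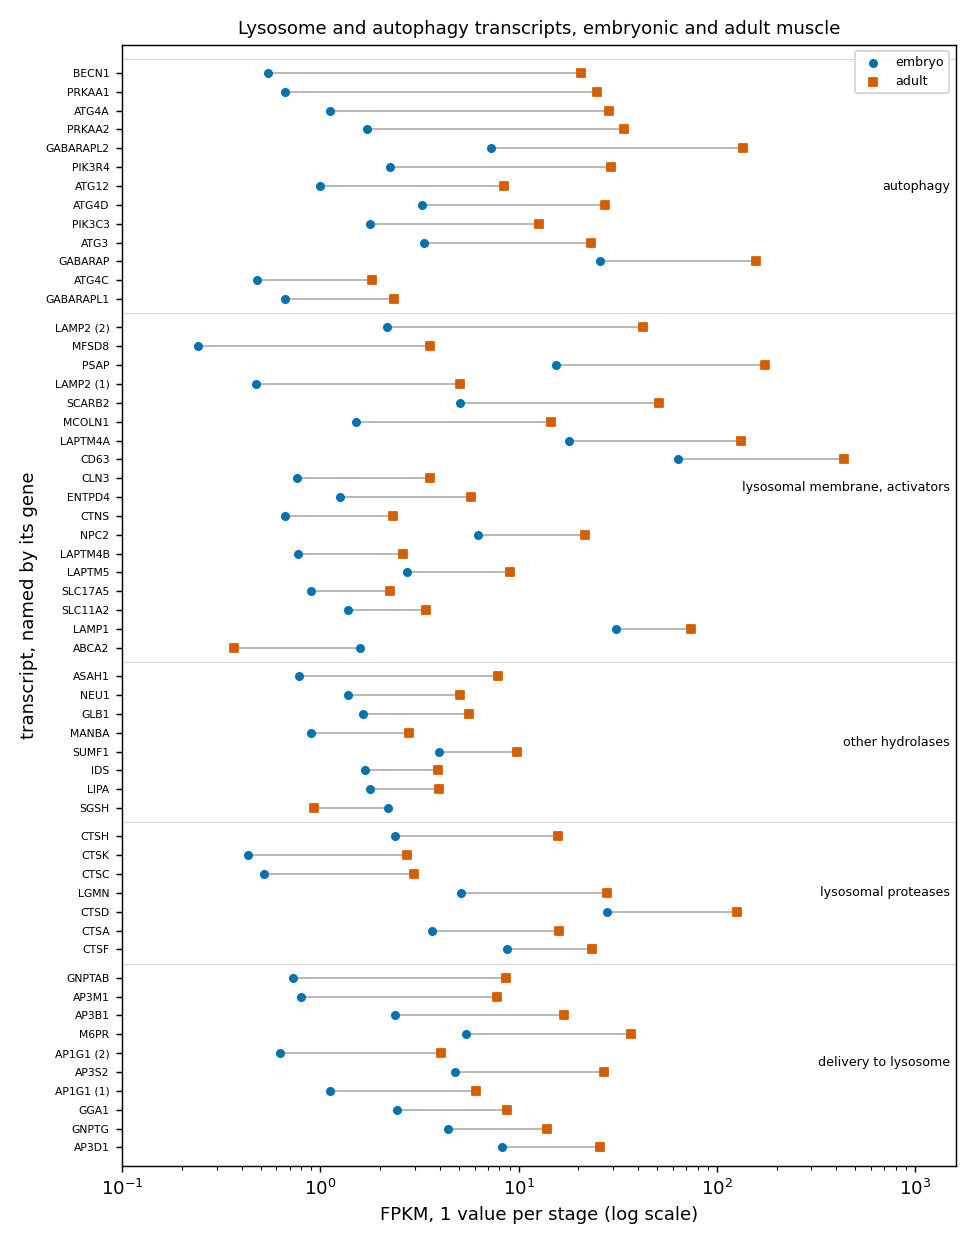
Embryonic (circle) and adult (square) FPKM (x axis, log scale) of the lysosome and autophagy transcripts named in the text, grouped by role (y axis); genes with 2 listed transcripts are numbered. The squares lie to the right except for ABCA2 and SGSH, and CD63 has the highest value at both stages.

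Autophagy members had the highest median ratio of the 10 roles. The class III phosphoinositide 3-kinase complex, which marks membranes for autophagosome formation, was present with its 3 core subunits. BECN1, beclin 1, had an FPKM of 0.543 in embryonic and 20.6 in adult muscle, 38.0-fold higher and the largest ratio of all members as deposited. This rank rests on the low embryonic value, since with 1 FPKM added to both stages the log2 ratio of BECN1 was 3.81 and that of GABARAPL2, 4.03, was larger. PIK3R4, the regulatory subunit, had 2.24 and 29.2, and PIK3C3, the kinase VPS34, had 1.79 and 12.7. BECN1 was below PIK3C3 in the embryo and above it in the adult. BECN1 (chr19:43469828-43489432, build bosTau7) lies 18103 bp from VPS25 (chr19:43446966-43451724), whose ratio was 4.67-fold. Both genes of the catalytic subunit of AMPK, the energy sensor that starts autophagy when ATP is low, were also among the largest ratios. PRKAA1 had 0.664 and 24.98, 37.6-fold higher, and PRKAA2, the form typical of skeletal muscle, had 1.71 and 34.1, 19.9-fold higher. PRKAA2 was the more abundant at both stages, with PRKAA1 at 28.0% of the pair in embryonic and 42.3% in adult muscle. BECN1, PRKAA1 and PRKAA2 stay higher under the 3 scalings.

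The ubiquitin-like proteins of the autophagosome membrane and the enzymes that process them differed widely in level. GABARAP had an FPKM of 25.8 in embryonic and 157 in adult muscle and was the most abundant autophagy member at both stages. GABARAPL2 had 7.30 and 135, 18.5-fold higher. GABARAPL1 had only 0.665 and 2.34. GABARAPL2 therefore made up 21.6% of the 3 in embryonic and 45.9% in adult muscle, with GABARAP going from 76.4% to 53.3%. Of the ATG4 proteases that prime and recycle these proteins, ATG4A had 1.11 and 28.6, ATG4D 3.25 and 27.2 and ATG4C 0.480 and 1.82. ATG4A and ATG4D were nearly equal in the adult, while ATG4D was the larger in the embryo. For lipid conjugation, ATG3, the enzyme that attaches lipid, had 3.35 and 23.1, and ATG12, part of the conjugate that assists it, had 0.991 and 8.42. The locus given for ATG12 (chr10:4618140-4868376) spans a far longer stretch than the short ATG12 gene, and what share of its reads comes from ATG12 was not tested. Of the 13 transcripts 8, 2 and 7 change direction under the scalings, GABARAP being among those that flip under housekeeping and equal-total scaling. The related MAP1LC3A and MAP1LC3B, the LC3 proteins by which autophagosomes are commonly followed, carry none of the labels and are not members. MAP1LC3A had 8.27 and 66.4, and MAP1LC3B had 0.399 and 15.9.

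**Figure D5:**
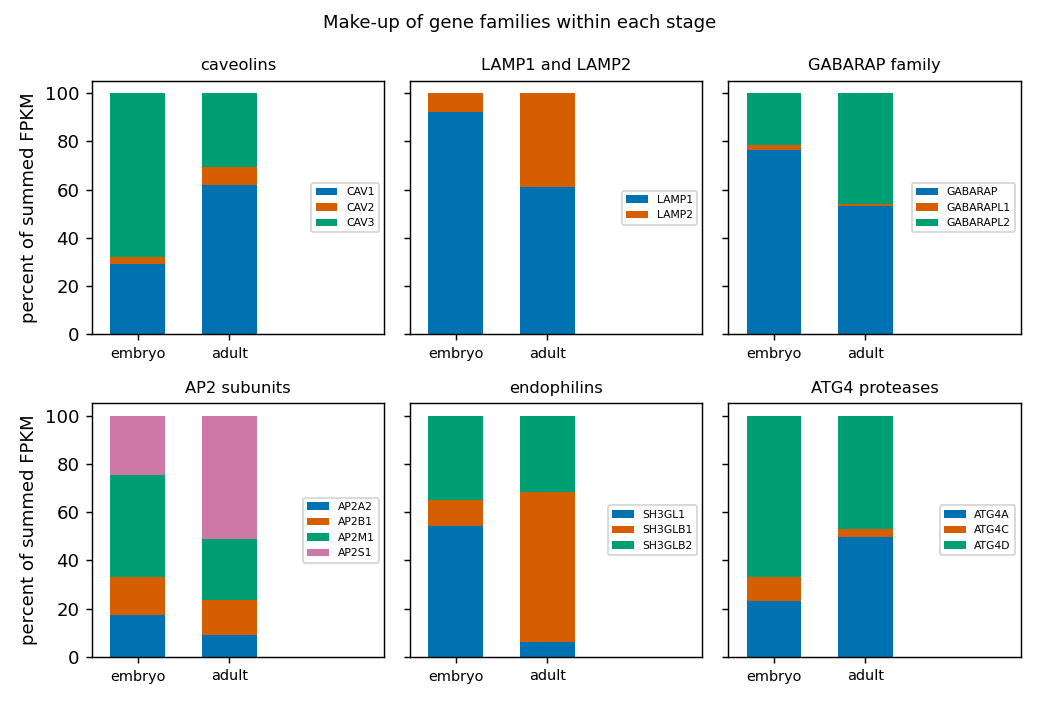
Stacked bars give the percent of the summed FPKM of a family's members (y axis) held by each gene in the embryo and the adult (x axis), which no scaling between the stages alters. Relatives that were not called or carry none of the labels are not in the sums. CAV3 goes from 67.8% to 30.7% of the caveolins, LAMP2 from 7.88% to 39.1%, GABARAPL2 from 21.6% to 45.9%, AP2S1 from 24.8% to 51.4%, SH3GLB1 from 10.4% to 62.1% and ATG4A from 23.0% to 49.7%.

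Genes of 3 further lists of the same machinery, outside the member list, were also higher in adult muscle as deposited. Of all transcripts 90.3% were higher, with a median log2 ratio of 2.71, so a list with nearly all rows higher lies near that share. Among non-members on the lists of the roles above, AP4E1, an adaptor subunit, had 0.586 and 10.9, while PSD, an exchange factor for Arf GTPases, was lower, with 0.764 and 0.134. Of 25 symbols for the V-ATPase, the proton pump that acidifies lysosomes, 14 have a row, and all 14 were more abundant in the adult (median log2 ratio 2.81). ATP6V1F had the largest ratio among them (4.63, FPKM 4.71 and 117) and ATP6V0A1 the smallest (1.18, FPKM 1.78 and 4.02). Of 58 symbols for selective autophagy, mitophagy and their regulators, 22 have a row, all 22 higher, with a median of 3.78. At least 8-fold higher were 13 of the 22, against 41.5% of all transcripts. MITF, a transcription factor related to TFEB, had the largest ratio there (6.15, FPKM 0.337 and 23.9), followed by the mitophagy receptor OPTN (5.77, FPKM 7.16 and 390). The smallest was that of ATG9A (1.53), a membrane protein of the early autophagosome. TFEB, the regulator of lysosomal genes, had 2.95 (FPKM 2.03 and 15.7). A list of endosomal sorting held 37 symbols, for retromer, sorting nexins, tethering complexes, phosphoinositide enzymes, Rab GTPases and SNARE proteins. Of these, 21 have a row, all 21 higher, with a median of 2.85. MTM1, a lipid phosphatase mutated in human myotubular myopathy, led with 5.79 (FPKM 0.162 and 8.99), RAB21 followed with 4.84, and RAB35 was last (FPKM 2.88 and 5.79). Of the 14 V-ATPase rows 3, 10 and 4 stay higher under the 3 scalings, of the 22 autophagy rows 11, 19 and 13, and of the 21 sorting rows 3, 13 and 6. Of all 5288 transcripts 1311, 3190 and 1854 stay higher.

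The deposited gene ontology tables place the members among broader terms. Of 171 background genes of the lysosome term 58 were called, or 33.9%, and of 213 endosome genes 75 were called, or 35.2%. Autophagy had 25 of 68 genes, or 36.8%, and late endosome membrane 17 of 34. Over all terms 4861 of 21673 genes were called, or 22.4%. These tables list only terms that passed the authors' own threshold, so terms with a low share are not among them. In the transcript table, 54 transcripts carry the lysosome term, of which 52 were more abundant in the adult (median log2 ratio 2.53). Of these 54, 25 are members. The endosome term is carried by 72 transcripts, 64 higher and 8 lower, and 18 of them are members.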

How the data were processed

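Longissimus muscle RNA of 3 embryos and 3 adults was depleted of ribosomal RNA and sequenced in paired ends with a strand-marking protocol, although the labels name polyA RNA. Per the submitters' processing notes, reads were trimmed with Trim Galore, aligned with TopHat2 (version 2.0.14) and quantified with Cufflinks, on build bosTau7. The authors deposited FPKM values, normalized for exon length and mapped fragments, with 1 value per stage. How the 3 samples of a stage were combined is not given in the sources used here, and the column of each stage was identified with the help of the study's text. The table holds only transcripts called by the authors at 2-fold or more. Their own fold changes, p-values and q-values were not used. The authors' gene ontology tables gave the other values, as numbers of called and background genes per term. The study's text gives read totals per sample, which were not used here. It also gives a lower mapped share of reads in the embryonic than in the adult samples. Of the mapped reads, a lower share was exonic and a higher share intronic in the embryonic samples. The part of these differences in the FPKM ratios was not tested. The deposited tables hold no counts per transcript, so no counting interval was computed.

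Log2 ratios of adult over embryonic FPKM were computed without a pseudocount (Python 3.11.15, pandas 2.3.3, numpy 2.4.6), and the code was tested on simulated data. No test between the stages was run. Alternatives were a pseudocount of 1 or 0.1, FPKM minimums, 3 scalings, distinct genes, a 4-fold minimum and other member rules. The members and lists were chosen with earlier results of these data known. The rule for named genes took, in each role, the lower members, the most abundant one in the adult, the 3 largest and 3 smallest ratios and genes with more than 1 transcript, and in the other lists the 2 largest and the smallest ratio. The other members named, TFEB, MAP1LC3A, MAP1LC3B, RAB11A, CTSL2, IST1, CHMP7, AP4E1 and PSD were added after their values were seen. The roles of EHD3, CLN3 and DNM1L were set after values were seen, the first 2 from the table's description column. STAM is also on the adaptor list and VTA1 also on the scission and recycling list, and both were counted under ESCRT. A few members are counted in every summary but are not reported by name here. A planned motif count in promoters was not run because no promoter sequence of this build was used here.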

Additional observations from a re-analysis of the deposited data

How the results depend on the processing

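No replicate spread exists, so a median or ratio was taken as unmoved when it changed by less than 1.5-fold. Scaling between the stages decided the direction of many members, but not of all. The median log2 ratio of the members, 2.30 as deposited, was -1.43 when centred on the housekeeping list, -0.0023 on ribosomal proteins and -0.95 with equal FPKM totals, and 12, 54 and 28 of the 102 members stayed higher in adult muscle. In the same order the median was -1.49, -0.061 and -1.01 for Endocytosis, -1.55, -0.13 and -1.07 for Lysosome, and -0.64, 0.78 and -0.17 for autophagy. An FPKM minimum of 2 in both stages left 52 higher members, because fewer transcripts were counted. A 4-fold minimum gave medians of 2.92 for Endocytosis and 3.70 for autophagy, and a pseudocount of 1 gave 1.57 for Lysosome. That pseudocount also brought the log2 ratios of BECN1 to 3.81, VTA1 to 3.76, PRKCZ to 2.96, GNPTAB to 2.48, ASAH1 to 2.32, ASAP1 to -0.55, ABCA2 to -0.91 and ERBB3 to -3.24, each nearer to 0 than as deposited and with its direction kept. Among single genes, all 3 scalings turned the log2 ratios of ARFGAP2 (-1.63, -0.20 and -1.15), CTSD (-1.55, -0.13 and -1.07) and KDR (-2.31, -0.88 and -1.83). The housekeeping list and equal totals turned those of CD63 (-0.95 and -0.47), CTSH (-1.0005 and -0.52), GABARAP (-1.13 and -0.65), M6PR (-0.96 and -0.48) and VPS4A (-1.05 and -0.57). The housekeeping list alone turned those of ASAH1 (-0.40), CAV1 (-0.36), CLTB (-0.030) and GNPTAB (-0.17). Which scaling is nearest to the RNA content of the tissue was not tested. No paired analysis was possible because the table holds 1 value per stage, and leaving out replicates was not run for the same reason. The table lists no transcript that was not called, so a symbol without a row has no known level here.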

Other observations

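All 17 transcripts that carry one of the 3 labels but were left out by other labels or symbol were higher in adult muscle as deposited. Of all transcripts 90.3% were higher. WWP1, a ubiquitin ligase, had the largest ratio, with an FPKM of 1.15 in embryonic and 220 in adult muscle (log2 ratio 7.58). MDM2, the ubiquitin ligase of p53, had 1.36 and 29.0, and TRAF6, a ligase of innate immune signaling, had 2.10 and 22.5. HSPA8, the chaperone of clathrin uncoating and of chaperone-mediated autophagy, had 114 and 1218 and was the most abundant of the 17 in the adult. With these transcripts added, the median log2 ratio of the members was 2.31.

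Besides CAV1 with CAV2 and VPS25 with BECN1, a further 2 pairs of members lie within 150000 bp of each other on build bosTau7. ERBB3 (chr5:57539932-57560884) and RAB5B (chr5:57646345-57663026) are 85460 bp apart and have the lowest ratio of all members (log2 ratio -4.93) and one of the highest (4.53). The gene of cathepsin D, CTSD (chr29:50352063-50361497), and AP2A2 (chr29:50406781-50444828) are 45283 bp apart, with log2 ratios of 2.18 and 1.46.

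Transcripts of matrix genes on the fibroblast marker list went the other way from most members. Of 9 fibroblast symbols 5 have a row, with 7 transcripts of which 6 were lower in adult muscle. The 7 had a summed FPKM of 842 in embryonic and 110.3 in adult muscle, most of it from COL1A2, with 630 and 78.7. The lower transcripts were those of COL1A1, COL1A2, POSTN and FN1, the last listed with several transcripts. PDGFRA, a receptor, was higher as deposited, with 6.48 and 15.7, and turns lower under each scaling. The number of fibroblasts was not tested. None of 10 erythroid symbols has a row.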
